A study of Mus musculus with 60 samples.

Results

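GABA-A receptor subunit genes were described here across the cortex of 30 inbred mouse strains, each measured after fluoxetine and after plain water. The members were the 7 genes Gabra2, Gabra3, Gabra4, Gabra5, Gabrb1, Gabrb2 and Gabrd, out of 18193 genes that had a probe set annotated with their symbol alone. Each gene was read from its brightest such probe set (a group of short oligonucleotides on the array that report 1 transcript), and all probe sets were also read for Gabra2. All 7 members were among the 11886 genes that passed the filter on low values (a log2 intensity of at least 4 in at least 6 arrays).

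The fluoxetine group received fluoxetine, a blocker of serotonin reuptake, by mouth at 18 mg/kg per day for 21 days, and the water group received 0 mg/kg over the same time. Every group held male mice only, 10 to 11 weeks old per the sample labels, and the mice of both groups went through behavioural tests (tail suspension and open field) before the cortex was taken. The strains, from the lowest to the highest Gabra2 level, were C57BL/6J, LG/J, NZB/BlNJ, C57BR/cdJ, P/J, CE/J, LP/J, NOD/LtJ, DBA/2J, MRL/MpJ, BTBRT T(+) tf/J, BUB/BnJ, NOR/LtJ, AKR/J, CBA/J, SJL/J, SWR/J, C57BLKS/J, NZW/LacJ, I/LnJ, A/J, C58/J, MA/MyJ, C3H/HeJ, PL/J, BALB/cJ, FVB/NJ, RIIIS/J, SM/J and 129S1/SvImJ. Each strain gave 1 fluoxetine array and 1 water array, and each array carried RNA pooled from 3 mice, so the 60 arrays held no single animals and no repeat of a strain within a treatment.

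GABA-A receptors are chloride channels gated by GABA, the main inhibitory transmitter of the cortex, and each channel is a ring of subunits drawn from several gene families. Alpha subunits set the affinity for GABA and, together with a gamma subunit, form the site of benzodiazepines, whereas beta subunits carry part of the GABA site and are needed for assembly and transport to the membrane. The alpha subunits of Gabra2 and Gabra3 occur mainly at synapses, the one of Gabra5 largely outside them, and that of Gabra4 joins the delta subunit, encoded by Gabrd, in receptors outside synapses that carry tonic inhibition. C57BL/6J is known from the literature to carry a spontaneous intronic deletion beside a splice acceptor of Gabra2 that lowers the RNA and the protein of this gene, whereas its relatives of C57 and C58 origin are separate strains. In a whole piece of cortex, fewer cells of a type and less RNA per cell cannot be told apart.

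The members were spread over 5 chromosomes. Gabra2, Gabra4 and Gabrb1 are neighbours on chromosome 5, in that order with Cox7b2 between Gabra2 and Gabra4, and Gabrg1 is the next gene on the other side of Gabra2. Gabrd is on chromosome 4, Gabra5 on chromosome 7, Gabrb2 on chromosome 11 and Gabra3 on chromosome X. Promoter windows (250 bases before to 50 after the annotated start) were found for 6 of the 7 members in RefSeq's table of assembly GRCm38.p6, which is the sequence of C57BL/6J itself. The 4 windows below are shown because their genes carry the strain differences described next: Gabra2 and Gabra3 each had 1 strain far under all others, and Gabra4 and Gabrb1 lie on opposite strands with starts close together. Capitals mark a GC box (GGGCGG, or CCGCCC on the other strand) or a TATA box (TATAAA, or TTTATA on the other strand).
Gabra2, chr5:71095800-71096099, minus strand: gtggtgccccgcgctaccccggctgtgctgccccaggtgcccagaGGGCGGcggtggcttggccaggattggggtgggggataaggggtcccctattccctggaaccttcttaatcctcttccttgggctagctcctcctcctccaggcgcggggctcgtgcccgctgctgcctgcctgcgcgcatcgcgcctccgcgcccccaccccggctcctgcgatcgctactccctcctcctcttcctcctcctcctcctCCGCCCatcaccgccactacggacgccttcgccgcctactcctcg
Gabra4, chr5:71658259-71658558, minus strand: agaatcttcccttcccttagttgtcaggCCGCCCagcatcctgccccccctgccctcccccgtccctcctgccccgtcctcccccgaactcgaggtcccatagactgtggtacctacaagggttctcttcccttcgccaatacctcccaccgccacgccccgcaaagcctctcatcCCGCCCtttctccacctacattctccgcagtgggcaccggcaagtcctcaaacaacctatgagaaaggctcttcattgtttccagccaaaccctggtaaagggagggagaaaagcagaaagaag
Gabrb1, chr5:71657671-71657970, plus strand: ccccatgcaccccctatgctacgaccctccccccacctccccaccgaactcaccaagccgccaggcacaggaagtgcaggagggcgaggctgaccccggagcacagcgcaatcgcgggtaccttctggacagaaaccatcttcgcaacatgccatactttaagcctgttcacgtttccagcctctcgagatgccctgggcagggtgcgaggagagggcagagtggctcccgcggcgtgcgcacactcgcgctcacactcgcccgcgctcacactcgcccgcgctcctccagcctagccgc
Gabra3, chrX:72656870-72657169, minus strand: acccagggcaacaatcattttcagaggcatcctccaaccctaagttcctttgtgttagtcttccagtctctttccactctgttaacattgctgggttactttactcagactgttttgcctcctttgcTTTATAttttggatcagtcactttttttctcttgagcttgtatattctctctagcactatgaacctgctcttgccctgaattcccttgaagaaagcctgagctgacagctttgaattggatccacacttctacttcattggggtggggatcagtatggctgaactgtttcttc

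The Gabra2 window was 70% G and C with 25 CpG dinucleotides and 2 GC boxes, and held no TATA box. The Gabrb1 window was 66% G and C with 25 CpG and neither motif, and the Gabra4 window 58.7% with 12 CpG and 2 GC boxes. The Gabra3 window stood at the other end, with 43% G and C, 0 CpG, no GC box and 1 TATA box. The table lists 2 promoters each for Gabra3 and Gabrb1, of which 1 is shown, so these letters describe that start only. Over all 32851 promoter windows of the table the median was 52.7% G and C and 7 CpG, a GC box was present in 35.7% and a TATA box in 13.6%. These motifs are 6-letter matches on either strand and describe the letters only.

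The markers checked the tissue. The 7 measured markers of excitatory cortical neurons were all among the tested genes, and markers of neighbouring regions were measured too. Of the 5 striatum markers read, Drd2 was at or near the floor of the values, while Penk averaged a log2 intensity of 9.44, Ppp1r1b 8.93, Drd1 8.18 and Rgs9 6.85. The summed intensity of that list ran from 1262 to 3000 on fluoxetine arrays and from 1109 to 3980 on water arrays. All 6 thalamus markers were among the tested genes, with sums from 1903 to 4138 on fluoxetine arrays and from 2552 to 4494 on water arrays. Clic6 of the choroid plexus list was at or near the floor, although Ttr of that list varied widely. The summed intensity of the choroid plexus list ran from 40.4 to 2391 on fluoxetine arrays and from 56.3 to 34978 on water arrays. Fluoxetine minus water, the mean log2 difference of the oligodendrocyte markers was -0.23 (lower in 22 of 30 strains). That of the astrocyte markers was 0.11 (higher in 25 of 30). Within the astrocyte list, Gfap differed by 0.43 and Aqp4 by 0.09, Slc1a3 and Slc1a2 by 0.02 each and Gja1 by -0.0006. Of the 5 markers of either list, 0 passed alone, beside 0.0589% of all genes tested. The median intensity was 39.1 to 42.6 on fluoxetine arrays and 39.2 to 43.1 on water arrays, and any 2 arrays correlated at 0.990 or more.

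Of the 7 members, 6 differed between strains beyond the spread between the arrays of a strain, and Gabrd did not pass. The same limma F-test (a moderated linear model over all genes, Benjamini-Hochberg adjusted at 0.05) called 88.3% of all tested genes, so a count of 6 in 7 is near the background. The share of the array-to-array variance that lay between strains (the intraclass correlation) was 0.996 for Gabra3, 0.798 for Gabra2, 0.794 for Gabrb1, 0.709 for Gabra5, 0.660 for Gabrb2, 0.544 for Gabra4 and 0.202 for Gabrd. The value of Gabra3 rests on NZB/BlNJ, which lay near the floor. With the farthest strain of each gene left out, a choice made after the values were seen, it was 0.55 for Gabra3 (without NZB/BlNJ), 0.694 for Gabra2 (without C57BL/6J) and 0.597 for Gabrb1 (without BALB/cJ), and 0.149 to 0.702 for the others. Within the order of the 30 strain means, most neighbours overlapped. The 2 arrays of a strain lay apart from those of the next strain in 5 of 29 neighbouring pairs for Gabra2, in 2 for Gabra3, Gabra5 and Gabrb1, in 1 for Gabrb2 and in 0 for Gabra4 and Gabrd.

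Gabra2 had its lowest level in C57BL/6J. On the probe set 1455444_at, log2 intensities over the 30 strains had a lowest, median and highest value of 9.81, 10.96 and 11.41 on fluoxetine arrays, and of 10.01, 10.97 and 11.36 on water arrays. C57BL/6J gave 9.81 on its fluoxetine array and 10.01 on its water array, and the other 29 strains ran from 10.30 to 11.41 on fluoxetine arrays and from 10.41 to 11.36 on water arrays. Both C57BL/6J arrays were therefore below every array of every other strain, with no overlap. The strain mean of 9.91 was below the mean of the others of 10.94 (difference -1.03, SE 0.0983, limma adjusted p = 1.17e-09), a level 49.0% of theirs. The same contrast of C57BL/6J with the other strains called 3 of the 7 members, 1 lower (Gabra2) and 2 higher, beside 23.5% of all genes tested (17% lower and 6.53% higher).

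Set against the spread between strains instead, C57BL/6J was the farthest of 30 strains from the mean of the others, which gives an exact permutation p of 0.0333, the smallest that 30 strains allow (two-sided). C57BL/6J was the farthest strain for 3.68% of all tested genes and the lowest for 6.47%. Of 11886 genes, 61, or 0.513%, lay at least as far below the other strains in C57BL/6J as Gabra2 did. The strain that followed was LG/J with a mean of 10.36, and 129S1/SvImJ was the highest with 11.38. The middle of the order, from 10.78 to 11.10, held strains whose arrays overlapped.

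The other probe sets of Gabra2 put C57BL/6J in the same place. The probe set 1443865_at gave 9.49 and 9.59 in C57BL/6J (fluoxetine and water array), against strain means of 10.53 to 11.01 in the other 29, a difference of -1.19 (limma adjusted p = 2.17e-15 over all probe sets) and a level 43.8% of theirs. The probe set 1421738_at gave 8.63 and 8.79 in C57BL/6J, against strain means of 9.11 to 10.05, a difference of -1.04 (limma adjusted p = 5.16e-12) and a level 48.6% of theirs. C57BL/6J was the lowest of 30 strains on all 3, and the plot of Gabra2 by strain shows that no other strain shared this place. The next lowest strain differed between probe sets: LG/J on 1455444_at and 1443865_at, and BTBRT T(+) tf/J, with a mean of 9.11, on 1421738_at. The remaining 2 probe sets of Gabra2, 1420299_at and 1449807_x_at, lay at the floor of the values (log2 2.07) and gave no level.

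**Figure D1:**
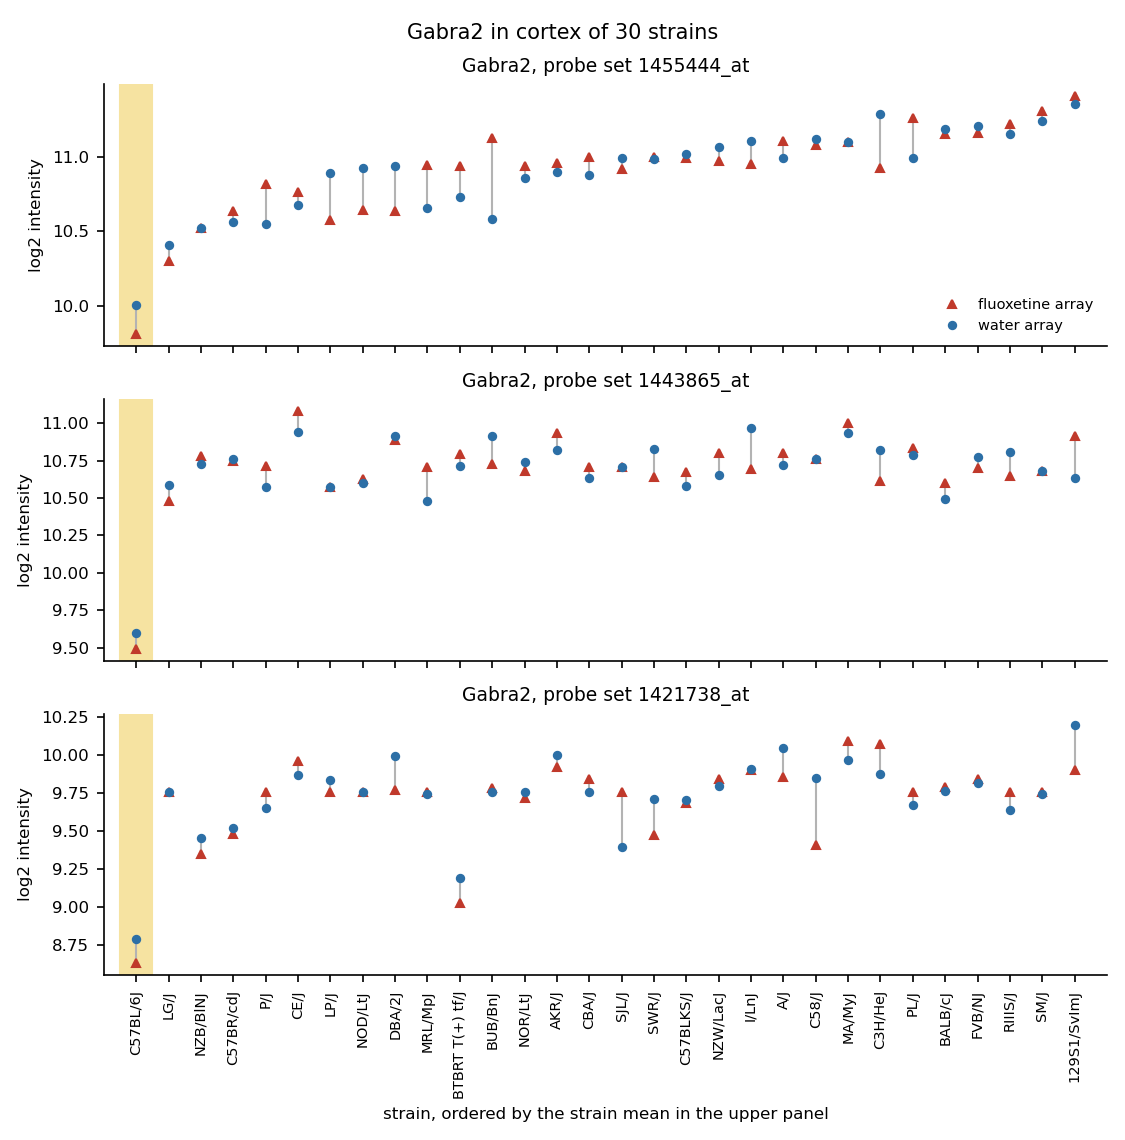
Log2 intensity of the 3 measured Gabra2 probe sets (vertical axes) in 30 strains (horizontal axis, ordered by the strain mean of the upper panel), with 1 fluoxetine array (triangle) and 1 water array (circle) per strain joined by a line. C57BL/6J, shaded, lies between 9.81 and 10.01 in the upper panel and under every other strain in all 3 panels.

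Relatives of C57BL/6J did not share its Gabra2 level. On 1455444_at, C57BLKS/J gave 11.00 and 11.02 (fluoxetine and water), C57BR/cdJ 10.64 and 10.56, and C58/J 11.08 and 11.12. C57BL/6J was below their mean (difference -0.99, SE 0.112, limma adjusted p = 7.04e-08). This contrast called 1 of the 7 members, Gabra2, beside 7.56% of all genes tested (4.9% lower and 2.67% higher). C57BR/cdJ was the lowest relative on 1455444_at and on 1421738_at (9.48 and 9.52), but on 1443865_at it was 20th from the bottom of 30.

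Outside C57BL/6J, the 3 Gabra2 probe sets ordered the strains differently. Their strain means correlated at 0.62 to 0.71 over 30 strains, but at 0.15 to 0.36 over the 29 strains without C57BL/6J. BTBRT T(+) tf/J, with 9.02 and 9.19 (fluoxetine and water), was next to C57BL/6J on 1421738_at but 11th from the bottom on 1455444_at. The order of the other 29 strains is thus given per probe set and not as a single Gabra2 order.

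Of the other 6 members, Gabra3 and Gabra5 were called higher in C57BL/6J than in the other strains, and no member other than Gabra2 was called lower. For Gabra5, C57BL/6J gave 11.12 and 11.34 (fluoxetine and water), against medians of 10.88 and 10.94 in the other 29 strains, a difference of 0.35 (SE 0.0715, limma adjusted p = 0.000497). It was the second highest strain mean, 11.23, just under 129S1/SvImJ with 11.24, and 11.14 in C57BR/cdJ came next, so the arrays overlapped with those of other strains. Against the spread between strains its exact permutation p was 0.0667, and against the 3 relatives the difference was 0.19 (limma adjusted p = 0.156).

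The call for Gabra3 rested on 1 strain among those it was compared with. C57BL/6J gave 11.91 and 11.91 for Gabra3, 0.40 over the mean of the other 29 (SE 0.0826, limma adjusted p = 0.000566). That mean included NZB/BlNJ, which was near the floor. Without NZB/BlNJ the difference was 0.07 (limma adjusted p = 0.606), and C57BL/6J was 22nd from the bottom of 30.

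The subunit genes beside Gabra2 on chromosome 5 were not called lower with it. Gabra4 gave 12.43 and 12.55 in C57BL/6J (fluoxetine and water), against 12.17 to 12.64 and 12.27 to 12.67 in the other strains, a difference of 0.08 (95% interval -0.03 to 0.20, limma adjusted p = 0.281). Gabrb1 gave 12.16 and 12.15 in C57BL/6J, against 11.42 to 12.49 and 11.55 to 12.46, and differed by -0.02 (95% interval -0.14 to 0.10, adjusted p = 0.877 with limma). Both intervals lie far from the difference of Gabra2, and for both genes the arrays of C57BL/6J overlapped with those of other strains. Gabrg1, the gamma subunit gene beside Gabra2, differed by 0.16 (SE 0.0737, limma adjusted p = 0.126), and by 0.36 from the 3 relatives (SE 0.0837, limma adjusted p = 0.00509). With each array centred on its median Gabrg1 was called higher against the other strains as well (0.23, limma adjusted p = 0.0286). The other Gabrg1 probe set, 1427227_at, did not pass without centring. It gave 0.12 against the other strains (limma adjusted p = 0.363) and 0.29 against the relatives (limma adjusted p = 0.0922). On the used one, 1460408_at, C57BL/6J was 23rd from the bottom, and C57BR/cdJ, a relative, had the lowest mean, 8.67.

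Elsewhere in the genome, Gabrb2 differed by -0.12 in C57BL/6J (95% interval -0.22 to -0.01, limma adjusted p = 0.0914). Another bright Gabrb2 probe set, 1429685_at, gave 0.13 (95% interval 0.0024 to 0.26), and the mean of all its probe sets -0.0079, so no direction is given for this gene. Gabrd differed by 0.03 (95% interval -0.40 to 0.46, limma adjusted p = 0.949). The interval of Gabrd is wide enough to hold differences of a size that would be called in the other members. The directions of small C57BL/6J differences moved with the scaling: when each array was centred on its median, the median difference of all genes went to 0.01 in place of -0.06, and the share of higher calls was 58.3% of 2304 in place of 27.8% of 2794. With that centring Gabra4 passed at 0.15 (limma adjusted p = 0.0491), and Gabrb1 was 0.05 instead of -0.02 without passing. For the contrast with the relatives, centring gave 56.2% of 802 calls higher in place of 35.3% of 899.

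**Figure D2:**
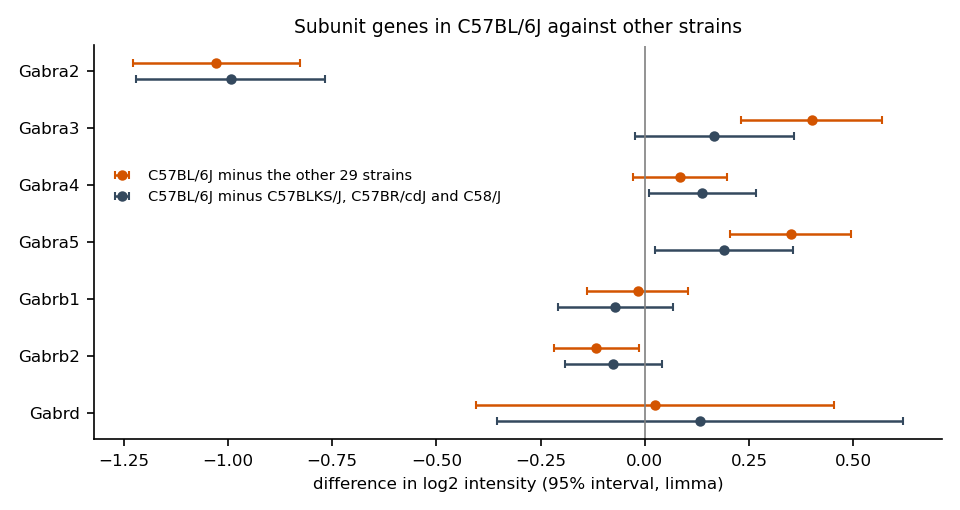
Difference in log2 intensity between C57BL/6J and the other 29 strains (orange) or the relatives C57BLKS/J, C57BR/cdJ and C58/J (dark), for the 7 subunit genes, with 95% intervals from limma. Gabra2 lies at -1.03 and -0.99, and all other estimates are between -0.12 and 0.40.

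Among the 10 genes on each side of Gabra2, 10 had a probe set and 7 were tested. Of these 7, 1 was called in C57BL/6J against the other strains, beside 23.5% of all genes tested (17% lower). That gene was Atp10d, which the reference annotation of C57BL/6J lists as a transcribed pseudogene. It gave 4.42 and 5.05 in C57BL/6J (fluoxetine and water), close to the filter on low values, and was below the mean of the others (difference -0.92, SE 0.155, limma adjusted p = 4.41e-05). Unlike Gabra2, it was as low in a relative: C57BLKS/J had the lowest mean, 4.50, C57BL/6J the second lowest, 4.74, followed by SM/J, 4.93.

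The genes whose strain means were most like those of Gabra2 (1455444_at) changed with the inclusion of C57BL/6J. Over 30 strains the 3 highest Pearson correlations among 11879 genes were 0.757 for Mapk1ip1, 0.706 for Capza1 and 0.685 for Atxn3. Over the 29 strains without C57BL/6J they were 0.923 for Atxn3, 0.922 for Acbd5 and 0.908 for Serf1. The last 3 genes were not low in C57BL/6J, where Atxn3 was 0.06, Acbd5 0.13 and Serf1 0.23 over the mean of the others. These correlations were the highest of many and are given as a description.

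Gabra3 was at or near the floor in NZB/BlNJ. This strain was singled out after its values were seen, so the following is a description with no test. On the probe set 1436957_at, NZB/BlNJ gave 2.23 on its fluoxetine array and 2.07 on its water array, against 11.51 to 12.20 and 11.46 to 12.20 in the other 29 strains. On 1421263_at, the other probe set, NZB/BlNJ gave 2.16 on both arrays, against strain means of 5.60 to 7.53 in the others. Both probe sets thus put every array of every other strain above NZB/BlNJ.

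The difference of the strain means on 1436957_at was -9.69 on the log2 scale, a level 0.121% of the others, and the floor resolves no lower level. Among the other 29 strains the means were close together, from 11.55 in 129S1/SvImJ to 12.20 in I/LnJ. Of the 10 genes on each side of Gabra3 on chromosome X, 3 were tested, and NZB/BlNJ differed from the other strains by 0.12 in Prrg3, -0.16 in Cetn2 and -0.04 in Nsdhl. The subunit genes Gabre and Gabrq, on either side of Gabra3, were at the floor in all strains.

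The places of the other 6 members in NZB/BlNJ are given for their brightest probe sets, as a description with no test. Gabra5 had its lowest strain mean there, 10.62, next to 10.64 in BUB/BnJ, Gabra4 its second lowest, 12.26, and Gabra2 was at 10.52, above only C57BL/6J and LG/J. Gabrb1 had its second highest, 12.41, as did Gabrb2 with 13.34. Other probe sets reversed both places. NZB/BlNJ was the lowest strain on 1443205_at of Gabrb1, and the second lowest on 1428204_at and 1428205_x_at of Gabrb2. Gabrd was 23rd from the bottom, with 9.84.

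Gabrb1 was lowest in BALB/cJ, again a strain singled out after its values were seen and given without a test. On 1419719_at, BALB/cJ gave 11.42 and 11.55 (fluoxetine and water), against strain means of 12.02 to 12.41 in the other 29, a difference of -0.71 and a level 61.1% of theirs. On 1435095_at it gave 11.41 and 11.45, against 11.90 to 12.24, a difference of -0.62 and a level 65.0% of theirs. Both BALB/cJ arrays lay below all others on these probe sets.

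Another Gabrb1 probe set did not set BALB/cJ apart. On 1443205_at, BALB/cJ gave 10.09 and 10.25 and was the fifth lowest, and NZB/BlNJ, which was second highest on 1419719_at, was the lowest with 9.99 and 9.95. The fourth, 1443834_at, was at the floor. Of all genes tested, 129, or 1.09%, lay at least as far below the other strains in BALB/cJ as Gabrb1 on 1419719_at. Gabra4, whose start lies beside that of Gabrb1, was 12.51 in BALB/cJ, the 25th of 30 from the bottom.

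**Figure D3:**
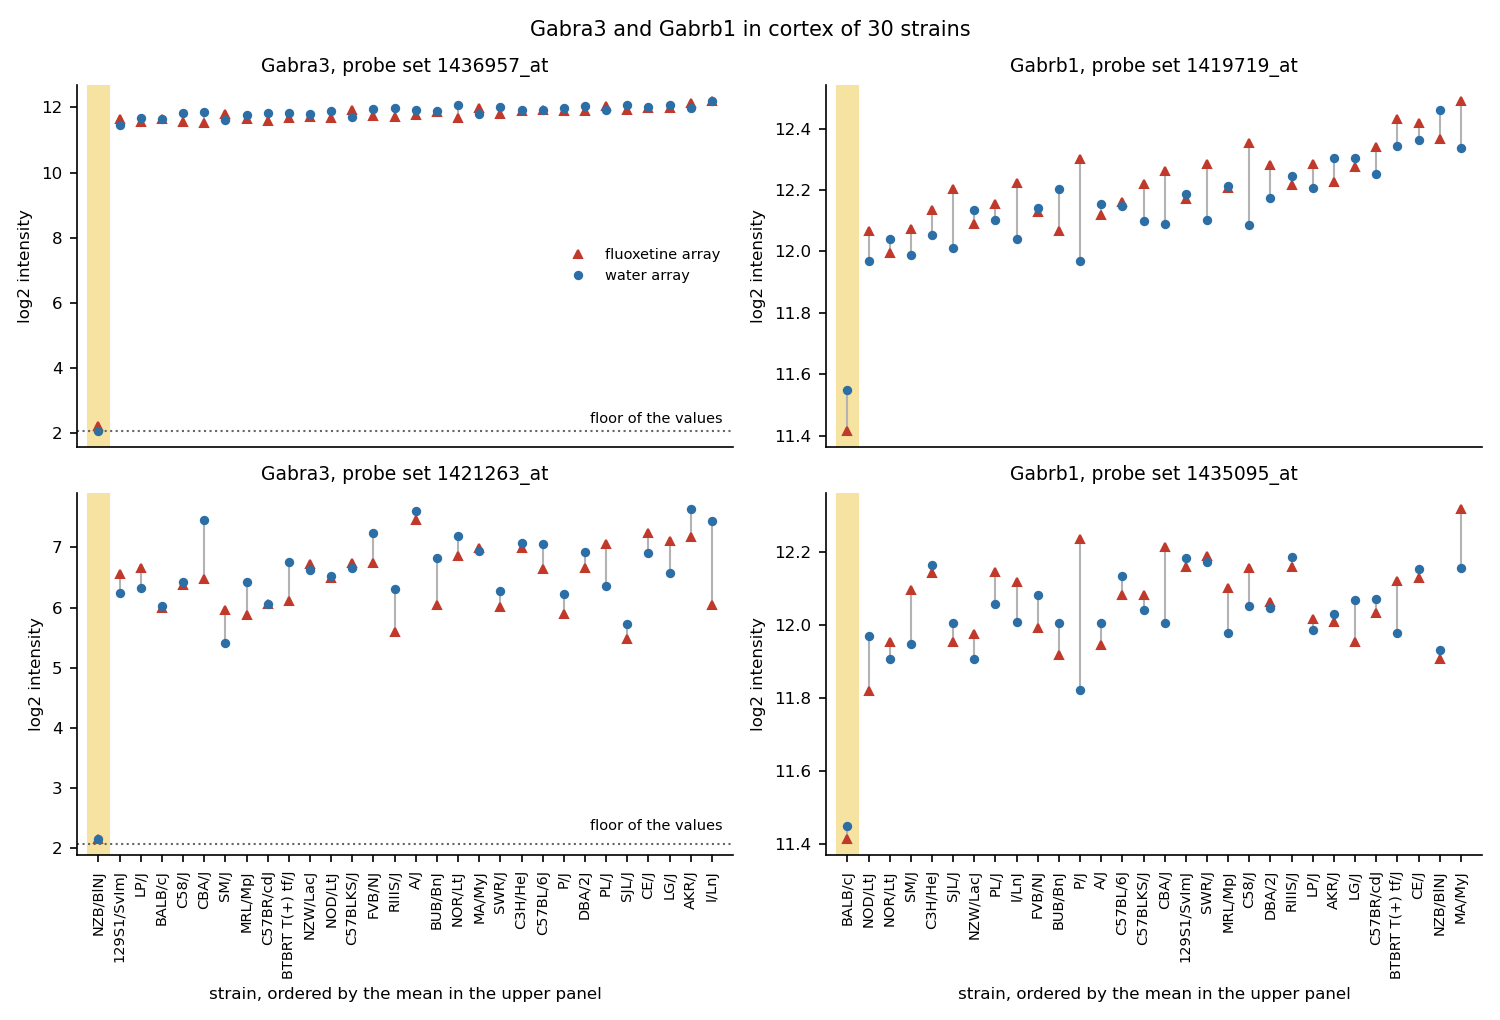
Log2 intensity of 2 Gabra3 probe sets (left) and 2 Gabrb1 probe sets (right) in 30 strains, ordered by the strain mean of the upper panels, with 1 fluoxetine array (triangle) and 1 water array (circle) per strain. NZB/BlNJ, shaded on the left, lies at 2.07 to 2.23 by the floor of the values (dotted), and BALB/cJ, shaded on the right, at 11.41 to 11.55 under all other strains.

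The probe sets of Gabrb2, a beta subunit gene, disagreed on the strains. The used one, 1428203_at, correlated at -0.10 to 0.0042 with 3 others (1428204_at, 1428205_x_at and 1429685_at), which correlated at 0.70 to 0.90 among themselves. DBA/2J was the lowest strain on those 3, with 11.08 and 11.35 (fluoxetine and water) on 1428204_at, against strain means of 11.42 to 11.94 in the other 29. Its differences from the others were -0.51, -0.36 and -0.38, yet on 1428203_at DBA/2J was 25th from the bottom with 13.20 and 13.25. NZB/BlNJ likewise was second highest on 1428203_at and among the lowest 3 on the other probe sets. The fifth probe set, 1450319_at, lay near 4.05 in all strains. DBA/2J was chosen after its values were seen.

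Gabra4, Gabra5 and Gabrd showed no strain as far apart as those. The Gabra4 strain means ran from 12.24 in CBA/J to 12.59 in I/LnJ without a gap between neighbours, and its second probe set, 1429330_at, correlated with the first at 0.65. Gabra5 had a single probe set, with means from 10.62 to 11.24. Gabrd strain means ran from 9.19 in CBA/J to 10.17 in A/J, but the strains' fluoxetine and water arrays correlated at 0.245, against 0.801 for Gabra2, and the F-test for strain gave a limma adjusted p of 0.0964.

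Whether partner subunits follow Gabra2 over the strains was examined with the 21 pairs of the 7 members, by permutation of strains with 100000 resamples and Benjamini-Hochberg adjustment over the 21 pairs. Strains of shared ancestry are not fully independent, so the p-values may be too small. Over all 30 strains, 0 of 6 pairs with Gabra2 passed on Pearson's r. The closest was Gabra2 with Gabra4, with r = 0.36 (permutation p = 0.0472, adjusted 0.338) and Spearman's rho = 0.56 (permutation p = 0.00161, adjusted 0.0169). C57BL/6J lies far from the rest in that pair, with the lowest Gabra2 and a Gabra4 mean of 12.49, 23rd from the bottom. Without C57BL/6J, r was 0.61 (permutation p = 0.0005, adjusted 0.00525) and rho 0.65 (permutation p = 0.00025, adjusted 0.00262), and r was 0.54 without the 2 farthest strains of those 29, LG/J and NZB/BlNJ.

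That relation was carried by 1 of the Gabra2 probe sets. With 1455444_at, r over the 29 strains was 0.61 and 0.72 for the 2 probe sets of Gabra4, whereas with 1443865_at it was -0.20 and -0.05 and with 1421738_at 0.29 and 0.02. The other partners of Gabra2 had r of 0.22 (Gabra3), -0.03 (Gabra5), -0.30 (Gabrb1), 0.22 (Gabrb2) and -0.04 (Gabrd) over 30 strains, with adjusted permutation p from 0.338 to 0.893. Without C57BL/6J they ran from -0.41 for Gabrb1 to 0.32 for Gabra3, and none passed. The positive r of Gabra3 rests on NZB/BlNJ, which lay near the floor. Without C57BL/6J and NZB/BlNJ it was -0.27 (adjusted permutation p = 0.473), and Spearman's rho over all 30 strains was -0.17.

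The pair that passed on Pearson's r over 30 strains was Gabra4 with Gabrb1, the genes whose starts lie side by side. Its sign was negative. Pearson's r was -0.58 (permutation p = 0.00018, adjusted 0.00378) and Spearman's rho -0.74 (permutation p = 2e-05, adjusted 0.00042), and r was -0.64 without the strains farthest in Gabra4, CBA/J and I/LnJ. It too depended on the probe sets, whose 6 pairings gave r from -0.58 to 0.33, of which 4 were negative. Pearson's r passed on water arrays alone (-0.63, adjusted permutation p = 0.00357), and did not on fluoxetine arrays alone (-0.40, adjusted permutation p = 0.142) or when the probe sets of each gene were averaged (-0.07, adjusted permutation p = 0.90). Without C57BL/6J, NZB/BlNJ and BALB/cJ, a choice made after the values were seen, it was -0.63 (adjusted permutation p = 0.00882). In those 27 strains Gabra3 with Gabra5 also passed, with r = -0.59 (adjusted permutation p = 0.0132), rho = -0.49 (adjusted permutation p = 0.0715) and -0.49 without 129S1/SvImJ and I/LnJ. Over the 28 strains other than C57BL/6J and NZB/BlNJ, the strain means of Gabra3 correlated with those of the thalamus list at r = 0.60 (permutation p = 0.00057, adjusted 0.0359 over 63 pairs) and rho = 0.65 (permutation p = 0.00028, adjusted 0.0176), with r = 0.58 without 129S1/SvImJ and I/LnJ. For Gabra5 the sign was the opposite, r = -0.43 (permutation p = 0.0216, adjusted 0.247) and rho = -0.47 (permutation p = 0.0128, adjusted 0.162). Gabra2 with the striatum list had r = -0.51 (permutation p = 0.00568, adjusted 0.179) and rho = -0.58 (permutation p = 0.00132, adjusted 0.0416). Its r was -0.54 without 129S1/SvImJ and LG/J. Their part in the Gabra3 and Gabra5 relation was not tested. The Gabra3 correlations with Gabra5 and the thalamus list given above were read on 1436957_at. Over the 29 strains without NZB/BlNJ, 1436957_at correlated with the other Gabra3 probe set, 1421263_at, at r = 0.35. With the probe sets of each gene averaged, Gabra3 with Gabra5 had r = -0.10 without AKR/J and NZB/BlNJ. The relation with the thalamus list was not examined on 1421263_at.

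**Figure D4:**
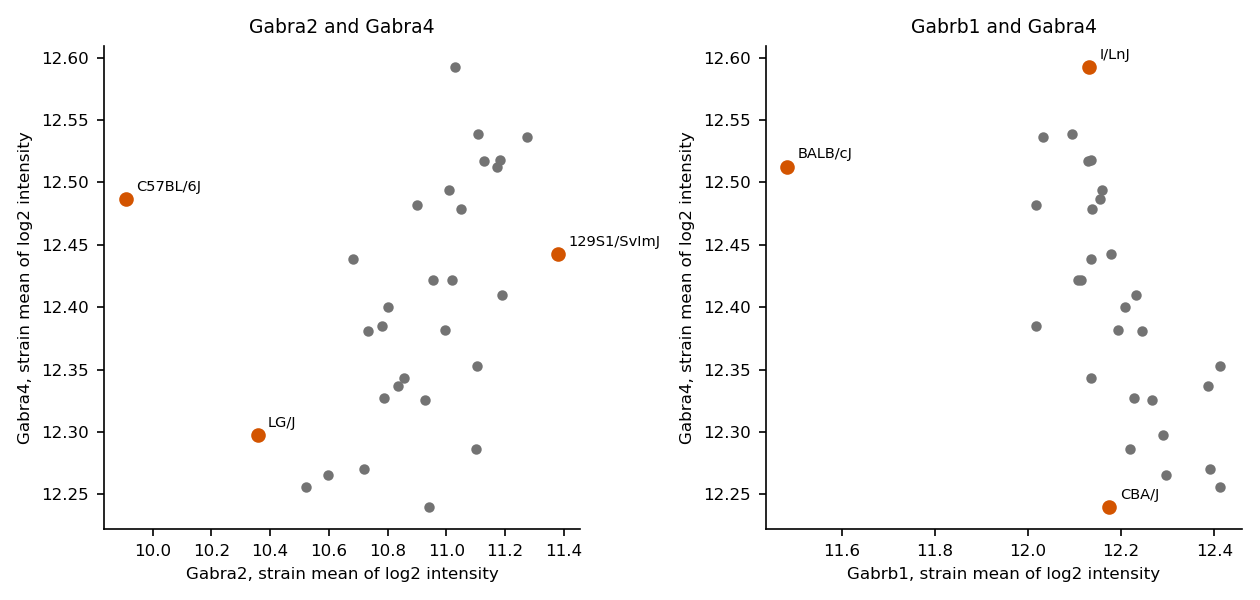
Strain means of log2 intensity for Gabra4 (vertical axes) against Gabra2 (left) and Gabrb1 (right), 1 point per strain, 30 strains, with the strains at the ends named in orange. C57BL/6J stands apart on the left with a Gabra2 mean of 9.91, and BALB/cJ on the right with a Gabrb1 mean of 11.48.

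After fluoxetine, 0 of the 7 members passed (limma with strain as a block, adjusted over 11886 genes), where 0.0589% of all genes tested were called (0.0421% lower and 0.0168% higher). At an unadjusted p under 0.05, 3 members (Gabra3, Gabrb1 and Gabrd) passed, against 15.3% of all genes. The median difference of the 7 was -0.04, beside a median of -0.0029 over all genes.

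Gabra2 did not pass. It averaged 10.91 ± 0.324 on fluoxetine arrays and 10.90 ± 0.299 on water arrays (SD over strains, n = 30 each), a difference of 0.01 (95% interval -0.06 to 0.08, limma adjusted p = 0.936), higher in 17 strains and lower in 13. The sign of so small a value turned when BUB/BnJ (-0.0093) or MRL/MpJ (-0.0002) was left out. In C57BL/6J itself the difference was -0.20, and the within-strain differences of the panel ran from -0.36 in C3H/HeJ to 0.55 in BUB/BnJ.

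Among the other alpha subunit genes, Gabra3 differed by -0.07 (95% interval -0.13 to -0.01, limma adjusted p = 0.252) and was lower in 21 of 30 strains. Gabra4 differed by -0.04 (95% interval -0.08 to 0.0047, limma adjusted p = 0.398) and Gabra5 by -0.04 (95% interval -0.10 to 0.01, limma adjusted p = 0.449), each lower in 19 strains. Of the beta subunit genes, Gabrb1 differed by 0.06 (95% interval 0.01 to 0.10, limma adjusted p = 0.195) and was higher in 18 strains. Gabrb2 differed by -0.03 (95% interval -0.06 to 0.01, limma adjusted p = 0.500) and was lower in 16. Over these 5 genes the intervals spanned -0.13 to 0.10 in all.

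Gabrd had the widest spread of within-strain differences. Log2 intensities had a lowest, median and highest value of 8.50, 9.64 and 10.29 on fluoxetine arrays, and of 9.26, 9.74 and 10.15 on water arrays. The mean difference was -0.20 (95% interval -0.35 to -0.04, limma adjusted p = 0.202), with an SD of 0.432 over strains and a median of -0.03, lower in 18 of 30. Most strains lay near 0 and a few lay far below it: P/J gave 8.50 on its fluoxetine array and 10.15 on its water array (-1.66), and C58/J 8.70 and 9.71 (-1.01). CBA/J and DBA/2J followed at -0.79 and -0.77, with 8.80 and 9.05 on their fluoxetine arrays and 9.59 and 9.82 on their water arrays. With each strain left out in turn the mean difference was -0.21 to -0.15.

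Marker lists of other cells also differed between the arrays of these strains. Each list was read as the unweighted mean of its tested markers, and which markers carried it in each strain was not tested. In the astrocyte list the largest mean difference over strains was that of Gfap. In P/J the log2 difference, fluoxetine minus water, was 0.75 for the astrocyte list and -1.05 for the oligodendrocyte list, and in C58/J it was 0.71 and -0.69. For region markers it was -0.69 for the thalamus list and 0.26 for the hippocampus list in P/J, and -0.12 and 0.27 in C58/J. Over 30 strains the Gabrd difference correlated with that of the astrocyte list at r = -0.71 (permutation p = 0.00045, adjusted 0.0142 over 63 pairs of a member with a marker list), with rho = -0.24 (permutation p = 0.205, adjusted 0.428) and r = -0.26 without C58/J and P/J, so the relation rests on those strains. With the interneuron list it was r = 0.54 (permutation p = 0.00244, adjusted 0.0384), rho = 0.41 (permutation p = 0.0258, adjusted 0.203), and r = 0.38 without them. With the thalamus list it was r = 0.29 (permutation p = 0.123, adjusted 0.294), rho = 0.46 (permutation p = 0.0104, adjusted 0.172), and r = -0.12 without them. With the hippocampus list it was r = -0.49 (permutation p = 0.00672, adjusted 0.0605), rho = -0.43 (permutation p = 0.0191, adjusted 0.172), and r = -0.33 without them. Their part in the Gabrd difference was not tested.

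A further 3 pairs of a member with a marker list passed. Gabrb2 with the striatum list had r = -0.61 (permutation p = 0.00011, adjusted 0.00693), rho = -0.66 (permutation p = 9e-05, adjusted 0.00567), and r = -0.62 without the 2 farthest strains. Gabrb1 with the astrocyte list had r = 0.56 (permutation p = 0.00093, adjusted 0.0195), rho = 0.30 (permutation p = 0.11, adjusted 0.355), and r = 0.44 without the 2 farthest strains. Gabra2 with the list of excitatory neurons had r = 0.52 (permutation p = 0.00312, adjusted 0.0393), rho = 0.56 (permutation p = 0.00173, adjusted 0.0545), and r = 0.54 without the 2 farthest strains. Each of these lists was measured on the same arrays as the member, and the part of the marker levels in the members' differences was not tested. Each member was read on its brightest probe set alone, and these relations were not examined on others or with centred arrays. For Gabrb2 that probe set, 1428203_at, correlated at -0.10 to 0.0042 with the other bright ones over the strain means.

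On the brightest probe set of each gene, the members' differences after fluoxetine were related to each other in 5 of 21 pairs. Other probe sets and centred arrays were not examined for these pairs. Both genes of a pair were read on the same arrays. The strongest was Gabrb1 with Gabrd, r = -0.73 (permutation p = 1e-05, the smallest these permutations can give, adjusted 0.00021) and rho = -0.62 (permutation p = 0.0002, adjusted 0.0042). It was -0.65 without BUB/BnJ and P/J, and the strains with the lowest Gabrd, P/J and C58/J, had the highest Gabrb1 differences, 0.33 and 0.27. Gabra4 and Gabra5 went together, with r = 0.54 (permutation p = 0.00222, adjusted 0.0233) and rho = 0.61 (permutation p = 0.00052, adjusted 0.00546), and r = 0.51 without MA/MyJ and SM/J. Gabra3 with Gabra4 had r = 0.49 (permutation p = 0.0068, adjusted 0.0346), rho = 0.44 (permutation p = 0.017, adjusted 0.0714) and r = 0.44 without C57BLKS/J and NOR/LtJ. Gabrb1 with Gabrb2 had r = -0.47 (permutation p = 0.00825, adjusted 0.0346), rho = -0.45 (permutation p = 0.014, adjusted 0.0714) and r = -0.43 without BUB/BnJ and P/J. Gabra5 with Gabrb1 had r = -0.52 (permutation p = 0.00342, adjusted 0.0239) and rho = -0.44 (permutation p = 0.016, adjusted 0.0714), but r = -0.30 without BUB/BnJ and P/J, so it rests on those strains.

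Other genes of the GABA system gave no call after fluoxetine, where 0.0589% of all genes tested were called. A count of 0 in each list below is therefore near the background. Of 12 other GABA-A subunit genes listed, 8 were read here, and 6 of these (Gabra6, Gabre, Gabrp, Gabrq, Gabrr1 and Gabrr2) were at or near the floor. The other 2, Gabrg1 and Gabrg3, encode gamma subunits: Gabrg1 differed by -0.08 (SE 0.0265, limma adjusted p = 0.148, lower in 20 strains) and Gabrg3 by 0.03 (limma adjusted p = 0.767). Of 19 tested genes for trafficking and anchoring of these receptors 0 passed, and the smallest adjusted p belonged to Trak2, a motor adaptor, with 0.11 (limma adjusted p = 0.142), and Iqsec3, which sits at inhibitory synapses, with 0.08 (limma adjusted p = 0.153).

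For GABA synthesis, transport and breakdown 0 of 9 passed, led by Gad2, a GABA-synthesizing enzyme, with 0.08 (limma adjusted p = 0.204), and Slc38a1, an amino acid transporter, with -0.05 (limma adjusted p = 0.276). For chloride and bicarbonate handling 0 of 9 passed, led by Car7, a carbonic anhydrase, with 0.09 (limma adjusted p = 0.177), and Slc4a10, a bicarbonate transporter, with 0.05 (limma adjusted p = 0.262). For the GABA-B receptor 0 of 2 passed. Gabbr1, a subunit of that receptor, differed by 0.04 (limma adjusted p = 0.298) and Kctd8, one of its auxiliary proteins, by -0.01 (limma adjusted p = 0.960).

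In C57BL/6J against the other strains, 5 of the 19 trafficking genes were called, all lower, where 17% of all genes were called lower. They were led by Plcl2, a protein of receptor transport (-0.22, limma adjusted p = 0.00564), Iqsec3 (-0.28, limma adjusted p = 0.0106), Lhfpl4 (-0.20, limma adjusted p = 0.0138), which anchors the receptors at synapses, and Nlgn2 (-0.20, limma adjusted p = 0.0439), the adhesion protein of inhibitory synapses. Most of these calls moved with the scaling: with arrays centred on their median 2 of the 19 were called, Iqsec3 (-0.21) lower and Rdx, which anchors Gabra5 receptors, higher (0.36), named here after its value was seen. Slc32a1, the vesicular GABA transporter, was called lower at -0.27 (limma adjusted p = 0.00226), and stayed called at -0.20 with that centring, the 1 call among 9 genes of synthesis and transport, where Abat, the enzyme of GABA breakdown, followed with -0.09 (limma adjusted p = 0.208). Of the genes for chloride handling 0 of 9 were called, with Car7 at -0.24 (limma adjusted p = 0.0543) and Stk39, a kinase of chloride transporters, at 0.17 (limma adjusted p = 0.0559), and with centring Stk39 (0.24) and Wnk3 (0.14) were called higher. Of the GABA-B receptor genes 0 of 2 were called, with Kctd8 at -0.25 (limma adjusted p = 0.245) and Gabbr1 at -0.07 (limma adjusted p = 0.382).

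Several marker lists also lay at or near an end of the strain order in C57BL/6J. Of the 8 interneuron markers, 3 (Pvalb, Slc32a1 and Vip) were called lower in C57BL/6J, beside 17% of all genes, and 2 (Pvalb and Slc32a1) with centred arrays. Without centring, 6 of the 8 were lower and 2 higher (Gad1 by 0.08 and Sst by 0.01). The mean of the list, also without centring, was the second lowest there, 11.27 against 11.24 to 11.52 in the other strains. The mean of the oligodendrocyte list was the highest, 10.96 against 9.63 to 10.95. The part of these lists in the differences of C57BL/6J was not tested.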

How the data were processed

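RNA from cortex, pooled from 3 male mice per strain and treatment, was hybridised to 60 one-colour Affymetrix arrays, 1 per strain and treatment. The deposited table holds intensities on a linear scale (4.21 to 72333.5) for 45101 probe sets, made by the authors with GCRMA per the submitters' processing notes; the sources used here give neither its version nor a genome build. The table has a floor at log2 2.07, which held 26.4% to 28.1% of the probe sets of an array. The deposited intensities were converted to log2, with no further normalization. The platform annotation gave 1 gene to 34945 probe sets, several to 932 and none to 9160, and 64 are controls; 18032 of 18193 genes matched the RefSeq table by Entrez number and no symbol changed. Each gene was taken from its brightest probe set, and 11886 genes with log2 of at least 4 in at least 6 arrays were tested.

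The members and gene lists were chosen with earlier results of these data known, so no list stands as independent evidence. From lists of other subunits, trafficking, synthesis, GABA-B receptor and chloride handling, the 2 genes with the smallest adjusted p, and up to 4 that passed, are named; the 3 genes most like Gabra2 were taken by Pearson's r. One model with strain and treatment was fitted over all genes with limma 3.58.1 (lmFit and eBayes, R 4.3.3), with two-sided tests and Benjamini-Hochberg adjustment at 0.05; it gave the fluoxetine difference, the strain F-test and the contrasts of C57BL/6J. It was tested on simulated data. Fluoxetine and water arrays of a strain are paired by the strain label; after centring each treatment on its mean, all 30 fluoxetine arrays and all 30 water arrays correlated best with their own strain (r from 0.519 to 0.855). No strain had a second pool within a treatment, so p-values rest on the spread of the within-strain differences. Permutations over strains and figures used Python 3.11.15, numpy 2.4.6, pandas 2.3.3 and matplotlib 3.10.9. Array intensities carry no count of reads, and the number of arrays limits the precision. A probe set also depends on how well its probes match the sequence of each strain, which was not tested. Alternatives were no block, other filters, averaged probe sets, centred arrays, arrays of 1 treatment and each strain left out.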

Additional observations from a re-analysis of the deposited data

How the results depend on the processing

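The count of 0 subunit genes called after fluoxetine held in all 35 alternatives, including the fit without the strain as replicate block. The count over all genes, 7, was 0 with no replicate block, 1 with no filter, 0 with averaged probe sets, and 0 to 21 with 1 strain left out (0 without C57BLKS/J or C58/J, 21 without RIIIS/J). The block changed no call of a subunit gene. The count of 3 subunit genes called in C57BL/6J against the other strains was 1 by exact permutation over strains, on fluoxetine arrays alone or on both arrays (the second added after the data were seen). That permutation p cannot be under 0.0333 with 30 strains and was not adjusted over genes, unlike the limma p. With limma the count was 2 to 3 with another strain left out (added after the data were seen). The count of 1 against the relatives was 1 to 2 with a strain left out, where Gabra4 passed without C57BLKS/J (0.21, limma adjusted p = 0.0369). The count of 1 near Gabra2 was 3 with centred arrays. On Pearson's r, the count of 0 partners correlated with Gabra2 was 1 without C57BL/6J or without the 2 strains farthest in Gabra2. Added after the data were seen, it was also 1 without C57BL/6J and NZB/BlNJ, or without these and BALB/cJ. On Spearman's rho, Gabra4 passed over all 30 strains as well (adjusted permutation p = 0.0169). Signs turned in small values that passed no test: Gabra2 after fluoxetine was -0.0013 with averaged probe sets, -0.00024 without MRL/MpJ and -0.0093 to 0.022 over the strains left out (lowest without BUB/BnJ). Gabrb1 in C57BL/6J was 0.070 against the others with averaged probe sets and 0.054 with centred arrays, and 0.034 against the relatives with averaged probe sets, and Gabrd against the relatives was -0.034 (without C58/J) to 0.31 (without C57BLKS/J). Of 707 alternatives of 21 single-gene differences, 697 kept direction and call. The Gabra2 difference of C57BL/6J was called in all of them, smallest with averaged probe sets, which includes those at the floor (-0.65). The other causes were not tested. Probe sets at the floor have no order.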

Other observations

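Gabrg3, which encodes a gamma subunit, was read by probe sets that ordered the strains differently. On 1439717_at, 4 strains lay far below the rest: P/J gave 3.04 and 3.04 (fluoxetine and water), I/LnJ 3.08 and 3.04, NZW/LacJ 3.08 and 3.08, and SJL/J 3.73 and 3.08. The next strain, LG/J, had a mean of 7.57, and C58/J the highest, 8.90. On 1445846_at, P/J, I/LnJ and NZW/LacJ had the highest strain means, 8.93, 8.88 and 8.64, while SJL/J had the lowest, 7.41. SJL/J was thus low on both probe sets, and the other strains of that group on one alone. They were singled out after their values were seen, and no test was made.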
